A study of Mus musculus with 4 samples.

Results

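The galectin-related genes Lgals1, Lgals3, Lgals3bp, Lgals8 and Lgals9, were followed in splenic CD8 T cells of mice given the dioxin TCDD, which activates the aryl hydrocarbon receptor (AHR), or its solvent DMSO. They make up 5 of 12393 named genes and 7 of 22626 probe sets on the array. A probe set was taken where the platform annotation gave it to exactly 1 of these genes, and the main probe set of a gene is the one with the highest mean over the 4 arrays. Lgals1 and Lgals8 each had another probe set, and the other 3 genes had 1 each. The genes were selected on their TCDD and DMSO values on these arrays, and the main probe set on its mean level, so their differences between treatments are given as a description, with no test.

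The TCDD group consisted of female C57BL/6 mice aged 8 to 12 weeks, injected intraperitoneally with TCDD at 10 µg/kg and killed 24 h later. The DMSO group consisted of mice of the same sex, strain and age, injected with DMSO and killed after 24 h. No gene was altered in either group. Spleen cells of 4 mice were pooled for a group, and CD8 T cells were then sorted by flow cytometry to a stated purity above 99%. Each group has 2 arrays, numbered 1 and 2 in their titles, and it is not stated whether these came from separate pools, so the spread between them may be technical.

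Galectins are lectins that bind beta-galactosides on the glycans of cell surface proteins. Galectin-1 is a small dimer with a single kind of carbohydrate domain, galectin-3 carries a long flexible tail through which it forms oligomers, and galectin-8 and galectin-9 join a pair of carbohydrate domains in a single chain. In T cells they are known for cross-linking glycoproteins such as CD45 and CD43, for setting the threshold of T cell receptor signalling, and, for galectin-9, for binding the inhibitory receptor TIM-3. Lgals3bp encodes no galectin but a secreted glycoprotein of the scavenger receptor family that binds galectin-3.

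For the gene with the largest difference among the 5, the stretch before its start site is shown because it holds the core of the dioxin response element, the DNA motif bound by the activated AHR, GCGTG. The 150 bases lie at chr14:47373710-47373859 on the plus strand of GRCm38.p6 (RefSeq), they run 5′ to 3′ up to the start site, and the capitals mark the motif.
Lgals3 promoter: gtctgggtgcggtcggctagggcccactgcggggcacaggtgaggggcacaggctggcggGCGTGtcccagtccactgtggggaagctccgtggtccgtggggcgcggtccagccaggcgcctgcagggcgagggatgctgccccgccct
Windows from 250 bases before to 50 after the start site were searched on both strands, and the table held such a window for 4 of the 5 genes, Lgals1 being the exception. Lgals3 had 1 match to GCGTG, with none in Lgals3bp, Lgals8 or Lgals9. Of 32851 promoter windows in the RefSeq table, 32.4% held at least 1 match. The match describes these letters only, and binding was not tested.

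Lgals3bp and Lgals9 are known as interferon-induced genes, and their windows held the core of the interferon regulatory factor motif, AANNGAAA, found in 23.9% of all windows. The 30 bases around the match just before the start site of Lgals3bp (chr11:118401955-118401984, minus strand) and around a match just after that of Lgals9 (chr11:78984891-78984920, minus strand) are shown from GRCm38.p6, with the match in capitals. In Lgals9 the motif lies on the opposite strand.
Lgals3bp: tgttttctgaaAATCGAAActaggtgaggt
Lgals9: aatagctgtggTTTCTGTTtcctagctcag
Lgals3bp had 1 match in its window and Lgals9 had 3, while Lgals3 and Lgals8 had 0. The motifs were chosen with the values of these genes known, and both motifs are common.

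The authors' values are log2 expression values made with RMA, which has no true zero, and they ran from 3.09 to 14.62. Array medians were 5.97 and 6.03 for TCDD and 5.99 and 6.01 for DMSO. Pearson's r over all probe sets was 0.9932 for the arrays numbered 1 and 0.9829 for those numbered 2, against 0.9816 for the TCDD pair and 0.9853 for the DMSO pair. The closest pair thus shared a number and not a treatment, while the DMSO pair was closer than the arrays numbered 2. The second closest pair, TCDD array 2 with DMSO array 1 at 0.988, shared neither. TCDD array 1 with DMSO array 2, at 0.9806, was the least close, so neither number nor treatment alone ordered the pairs. All 8 measured CD8 T cell markers lay above 6.01, the median mean level of all probe sets, and their mean level was 9.09 and 9.49 on the TCDD arrays against 9.53 and 9.65 on the DMSO arrays. The TCDD arrays were all below the DMSO arrays for 4 of these 8 markers, where 12.0% of all genes were. Among them Cd8a, the CD8 alpha chain, differed by -0.73 and the surface glycoprotein gene Thy1 by -0.70. The other 4 overlapped, namely the CD8 beta chain gene Cd8b1 at -0.07, Cd3d at -0.055, Cd2 at 0.035 and Cd3e at -0.265. Cd3e was lower after TCDD within both numbers, by -0.19 and -0.34. In sorted pools, fewer cells of a kind and less RNA per cell cannot be told apart. With 4 arrays in all, their number limits the precision of every comparison.

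**Figure D1:**
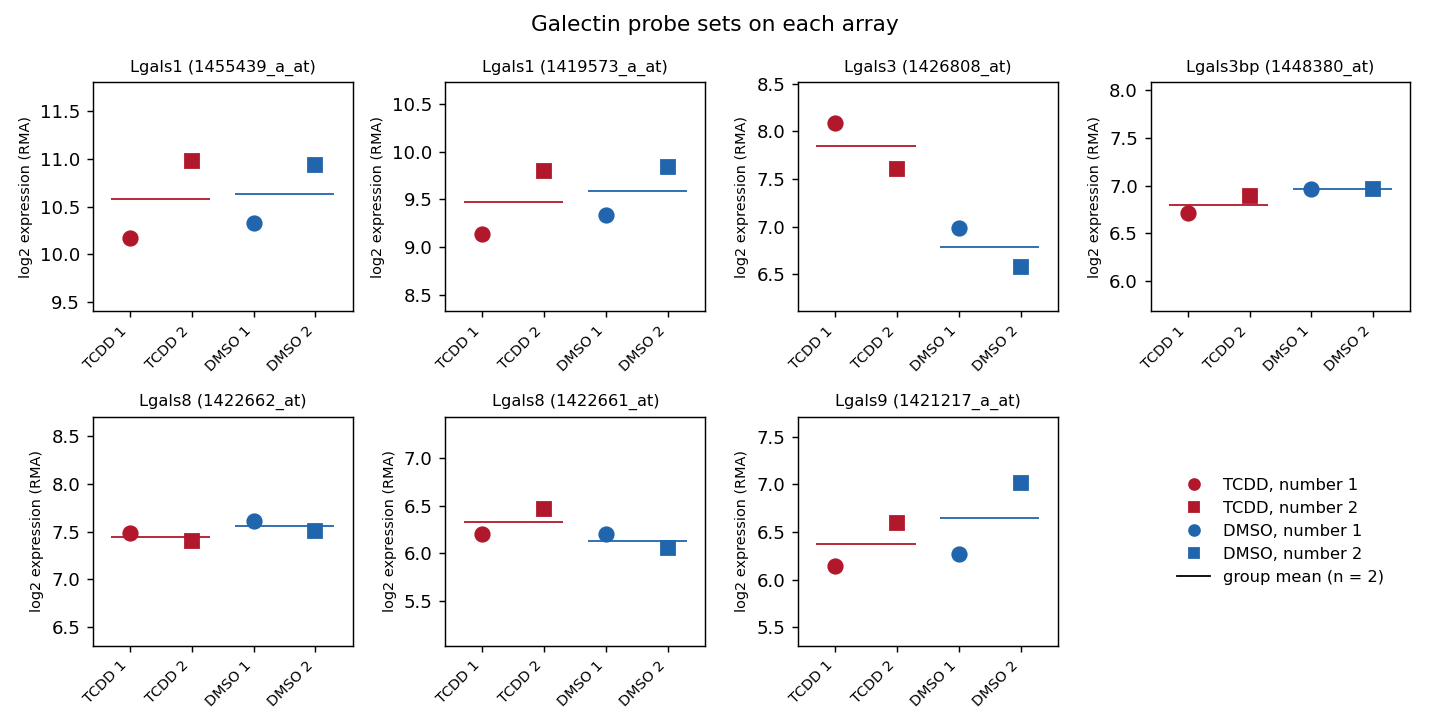
Log2 expression (RMA, vertical axis, each panel spanning the same number of log2 units) of the 7 galectin probe sets on each array, with TCDD arrays in red left of DMSO arrays in blue, circles for number 1, squares for number 2, and lines at the group means (n = 2). For Lgals3 both TCDD points, 8.09 and 7.60, lie above both DMSO points, while the Lgals1 points separate by number.

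Lgals3, which encodes galectin-3, measured higher after TCDD on both arrays. It was at 8.09 and 7.60 on TCDD arrays 1 and 2, against 6.99 and 6.58 on DMSO arrays 1 and 2. The lower TCDD array lay above the higher DMSO array, so the groups did not overlap. The means were 7.845 ± 0.346 after TCDD and 6.785 ± 0.29 after DMSO (SD, n = 2 each), a difference of 1.06 on the log2 scale, or 2.09-fold. The difference was of similar size within each number, at 1.10 for the arrays numbered 1 and 1.02 for those numbered 2. Among the 12393 genes ranked by this difference, Lgals3 stood at position 2 from the top, behind the lysozyme gene Lyz1 at 1.11. By size, 0.113% of genes had a larger difference than Lgals3. That position is part of why the gene was chosen. The gene had a single probe set on the array, so no other probe set was at hand to check it.

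Lgals1, which encodes galectin-1, measured nearly alike in both treatments. Its main probe set read 10.17 and 10.98 on TCDD arrays 1 and 2, against 10.33 and 10.94 on DMSO arrays 1 and 2. Both arrays numbered 1 were low and both numbered 2 were high, and the treatments overlapped fully. The group means were 10.575 ± 0.573 after TCDD and 10.635 ± 0.431 after DMSO (SD, n = 2 each), a difference of -0.06. Within numbers it was -0.16 for number 1 and 0.04 for number 2, and the sign of the pooled difference turned with the array left out, from -0.465 without TCDD replicate 2 to 0.345 without TCDD replicate 1, with 0.245 without DMSO replicate 2. The other probe set read 9.14 and 9.80 on the TCDD arrays against 9.34 and 9.84 on the DMSO arrays, the same order by number, with a difference of -0.12.

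Lgals9, which encodes galectin-9, had its highest value on a DMSO array. It read 6.14 and 6.60 on TCDD arrays 1 and 2, against 6.27 and 7.02 on DMSO arrays 1 and 2. The lower value of each pair with the same number was the TCDD one, by -0.13 and -0.42, but the treatments overlapped because both arrays numbered 2 exceeded both numbered 1. The means were 6.37 ± 0.325 after TCDD and 6.645 ± 0.53 after DMSO (SD, n = 2 each). The pooled difference of -0.275 depended on DMSO replicate 2, without which it was 0.10, and it was -0.045 without TCDD replicate 1 and -0.65 without DMSO replicate 1. The mean level of Lgals9 was 6.51, beside the median of 6.01 over all probe sets.

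Lgals8, which encodes galectin-8, a marker of damaged vesicles that draws in the autophagy machinery, differed little. The main probe set read 7.49 and 7.40 on TCDD arrays 1 and 2, against 7.61 and 7.51 on DMSO arrays 1 and 2. Both TCDD values lay below both DMSO values, by a margin of 0.02 between 7.49 and 7.51. The means were 7.445 ± 0.0636 after TCDD and 7.56 ± 0.0707 after DMSO (SD, n = 2 each), a difference of -0.115, with -0.12 and -0.11 within the numbers. The other probe set went the other way. It read 6.20 and 6.46 on TCDD arrays against 6.20 and 6.06 on DMSO arrays, a difference of 0.20, with 0 within number 1 and 0.40 within number 2, and the mean of both probe sets differed by 0.0425.

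Lgals3bp, whose product binds galectin-3, did not follow Lgals3. It read 6.71 and 6.89 on TCDD arrays 1 and 2, against 6.97 on both DMSO arrays. The TCDD arrays lay below the DMSO arrays, with the gap mostly on TCDD array 1. The means were 6.80 ± 0.127 after TCDD and 6.97 ± 0 after DMSO (SD, n = 2 each, the DMSO values being equal to the 2 decimals deposited), a difference of -0.17. Within numbers the difference was -0.26 and -0.08, and it was -0.08 without TCDD replicate 1.

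Counted over the main probe sets, the TCDD values all lay above the DMSO values for 1 of the 5 genes, Lgals3, where 12.9% of all 12393 genes did so. Both lay below for 2 genes, Lgals3bp and Lgals8, where 12.0% of all genes did so, and the treatments overlapped for Lgals1 and Lgals9. Within both numbers the TCDD value was higher for 1 gene, where 22.6% of all genes were, and lower for 3 genes, where 20.2% of all genes were. The median difference over the 5 genes was -0.115, beside 0.01 over all genes. The limma fit over all 22626 probe sets called 0 of the 5 genes, and 0% of probe sets passed an adjusted p of 0.05 (lowest adjusted p = 0.9973), with 439 probe sets at an unadjusted p under 0.05. These counts use the contrast in view of which the genes were chosen.

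**Figure D2:**
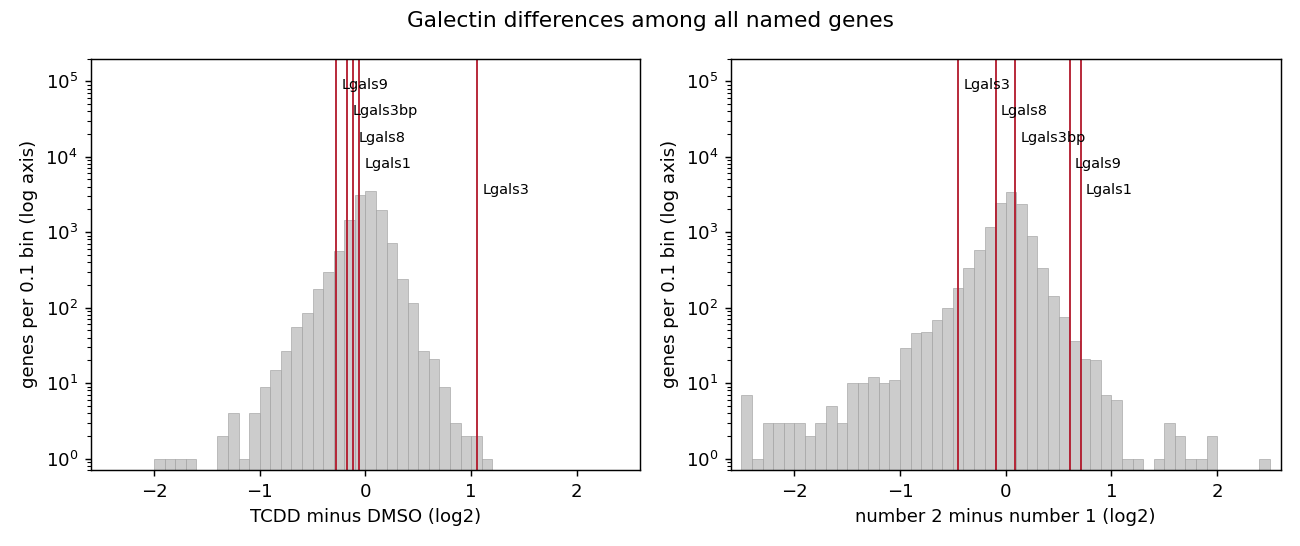
Histograms of the difference of each of 12393 named genes (main probe set, horizontal axis in log2 units, values beyond 2.5 in size placed in the end bins, vertical axis logarithmic), with red lines at the 5 galectin genes. On the left, TCDD minus DMSO, Lgals3 at 1.06 stands at the upper edge and the other 4 lie between -0.275 and -0.06. On the right, number 2 minus number 1, Lgals1 at 0.71 and Lgals9 at 0.605 lie in the upper tail and Lgals3 at -0.45 on the lower side.

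The number in the array title divided the galectins differently from the treatment. Lgals1 averaged 10.96 on the arrays numbered 2 and 10.25 on those numbered 1, a difference of 0.71 with unadjusted 95% limits of 0.3629 and 1.057. It was higher on number 2 by 0.81 among the TCDD arrays and by 0.61 among the DMSO arrays, and the other Lgals1 probe set differed by 0.58. Lgals9 averaged 6.81 on number 2 and 6.205 on number 1, a difference of 0.605 with limits of 0.2163 and 0.9937, and 0.46 and 0.75 within TCDD and within DMSO. Lgals3 went the other way, with 7.09 on number 2 and 7.54 on number 1, a difference of -0.45 with limits of -0.7617 and -0.1383. Thus the Lgals3 difference between numbers was smaller in size than its difference between treatments, whereas for Lgals1 and Lgals9 the difference between numbers was the larger.

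None of these differences between numbers passed the adjustment over all 22626 probe sets. The limma fit with treatment as a covariate gave an adjusted p of 0.5321 for Lgals1, 0.6545 for Lgals9 and 0.7111 for Lgals3. Lgals3bp differed by 0.09 and Lgals8 by -0.095, with adjusted p of 0.9329 and 0.9262 in the same limma fit. The fit has 1 residual degree of freedom and called 0% of probe sets (lowest adjusted p = 0.4779), with 1361 at an unadjusted p under 0.05, while the same design with a variance trend and robust fitting called 30 probe sets, with 0 galectins among the calls. Both arrays numbered 2 lay above both numbered 1 for 2 of the 5 genes, Lgals1 and Lgals9, where 22.4% of all genes did so, and below for 0 of 5, where 14.0% did so. What the number stands for is not stated in the labels.

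**Figure D3:**
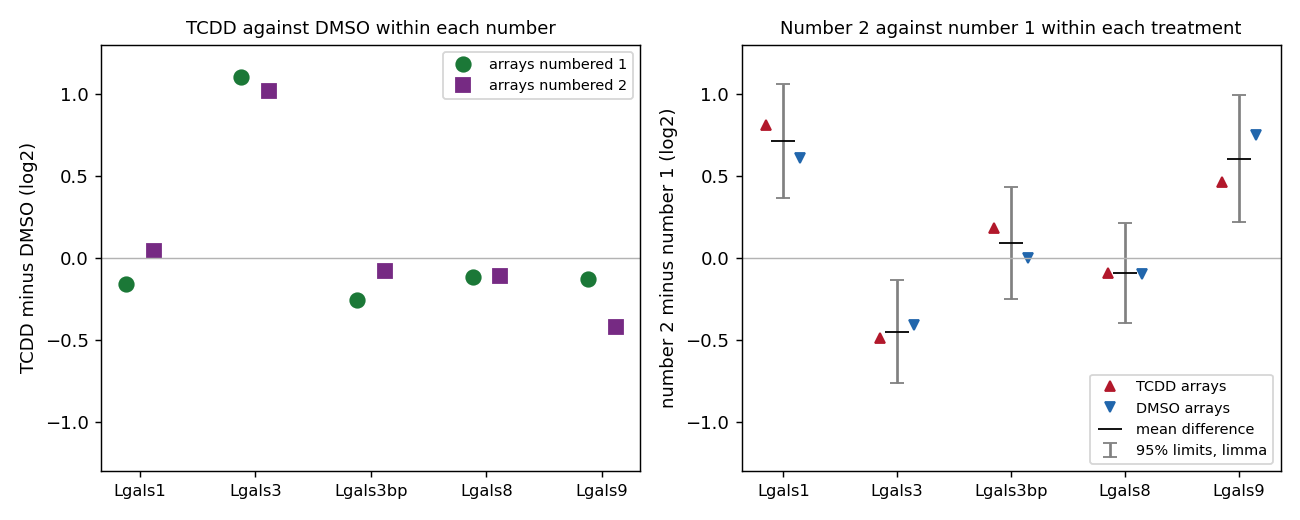
Left, TCDD minus DMSO in log2 units for the main probe set of each gene, with circles for the arrays numbered 1 and squares for those numbered 2; both Lgals3 points, 1.10 and 1.02, lie far above the others. Right, number 2 minus number 1, with triangles for the TCDD and the DMSO arrays, short lines for their mean and bars for the unadjusted 95% limits of the limma fit; the limits of Lgals1, Lgals9 and Lgals3 do not include 0.

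The genes whose values followed each galectin most closely were found by the root mean square difference between centred log2 profiles over the 4 arrays, among genes above the median level with a range of at least 0.5. For Lgals3 they were Zranb1, which encodes a deubiquitinase, at a root mean square difference of 0.131, Fbxo22, which encodes an F-box protein of a ubiquitin ligase, at 0.179, and Mrps9, which encodes a protein of the mitochondrial ribosome, at 0.193. All 3 were highest on TCDD array 1 and lowest on DMSO array 2, as Lgals3 was. Their other probe sets did not all do the same. Those of Zranb1 differed by 0.335 and 0 between treatments, those of Fbxo22 by -0.005 and 0.035, and those of Mrps9 by 0.555, 0.33 and -0.02.

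For Lgals1 the closest were Rab4b, which encodes a small GTPase of endosome recycling (0.0539), C1qa, a complement gene expressed by macrophages (0.0612), and the T cell receptor beta variable segment Trbv1 (0.0729). C1qa read 5.87 and 6.77 on the TCDD arrays against 5.95 and 6.67 on the DMSO arrays. The Trbv1 probe set has a name that marks possible cross hybridisation. For Lgals9 the closest profiles were Rras2, which encodes a small GTPase of the RAS family (0.013), Trir (0.0334) and Luc7l3, which encodes a splicing factor (0.046). The main probe set of Rras2 read 7.44 and 7.90 on TCDD arrays against 7.54 and 8.32 on DMSO arrays, highest on DMSO array 2 as Lgals9 was, while its other probe set was highest on TCDD array 1, at 7.41, and differed by -0.445 between numbers. For Lgals3bp they were Tssc4 (0.0873), 4930453N24Rik (0.0883) and Suclg1, which encodes a subunit of succinyl-CoA ligase (0.0983). For Lgals8 they were Sec23ip (0.124), St13, which encodes a cochaperone of HSP70 (0.127), and Cdc5l, which encodes a spliceosome protein (0.132). Lgals3bp and Lgals8 ranged over only 0.26 and 0.21, below the range asked of the compared genes, so their closest profiles are larger in amplitude. With 4 points a profile and 2237 or 2238 candidate genes, close matches are easy to find.

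**Figure D4:**
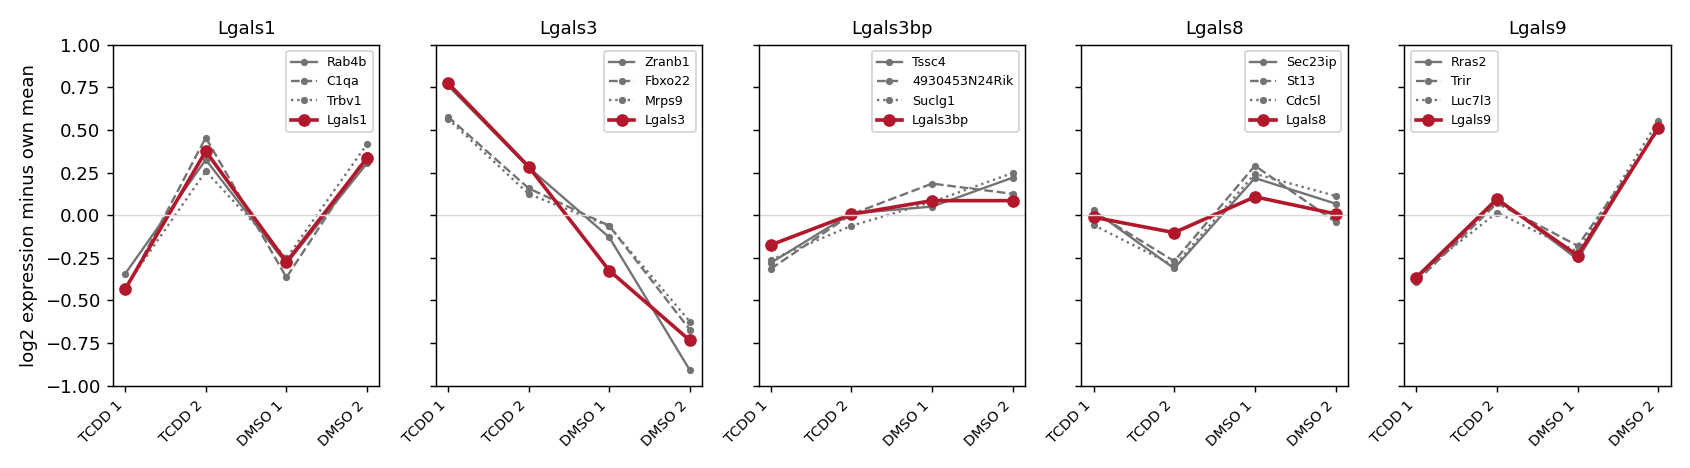
Log2 expression minus each gene's own mean (vertical axis) on the 4 arrays for each galectin (red) and the 3 genes nearest to it (grey lines, named in each legend). Lgals1 and its neighbours zigzag with the array number, Lgals3 and its neighbours step down from TCDD array 1 to DMSO array 2, and Lgals9 and its neighbours peak on DMSO array 2.

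Other genes of the galectin family were compared by treatment too. Of 7 listed, 5 were measured, with a median difference of 0.04. The TCDD values all lay beyond the DMSO values for 0 of the 5, where 12.9% of all genes lay above and 12.0% below. With so few genes, 0 is close to those shares. Lgals12, which encodes a galectin of adipocytes, differed by 0.085, and Lgals4, which encodes an intestinal galectin, by -0.045, with limma calling 0 of the 5 genes.

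Among 21 measured glycoproteins and receptors that galectins bind, the TCDD values all lay above the DMSO values for 2 and below them for 1, where 12.9% and 12.0% of all genes did so, with overlap for 18. The median difference was 0 and limma called 0. Ptprc, which encodes the phosphatase CD45, read 12.21 and 11.62 on the TCDD arrays against 12.13 and 12.57 on the DMSO arrays, a difference of -0.435 that arose within number 2 (-0.95) and not within number 1 (0.08). Cd3e, a chain of the T cell receptor complex, differed by -0.265 with overlapping groups. Spn, which encodes CD43, a counter-receptor of galectin-1, read 7.16 and 7.41 on TCDD arrays against 7.14 and 7.15 on DMSO arrays. Havcr2, which encodes TIM-3, read 5.30 and 4.49 on TCDD arrays against 4.99 and 4.38 on DMSO arrays, below the median level of all probe sets on every array. Spn and Havcr2 were named for their roles, after their values were seen.

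Enzymes that branch and cap N-glycans, and so set how many galectin ligands a cell carries, were measured for 20 of 22 listed genes. The TCDD values all lay below the DMSO values for 5 of the 20, where 12.0% of all genes did so, and above for 0, where 12.9% did so, with overlap for 15 and a median difference of -0.053. Limma called 0 of them. St6gal1, the sialyltransferase whose product masks galectin-1 ligands, read 9.96 and 9.70 on the TCDD arrays against 10.09 and 10.48 on the DMSO arrays, a difference of -0.455. B3gnt2, which extends polylactosamine chains, read 6.57 and 6.22 on TCDD arrays against 6.58 and 7.09 on DMSO arrays, a difference of -0.44. For both genes most of the difference lay within number 2, at -0.78 for St6gal1 and -0.87 for B3gnt2, against -0.13 and -0.01 within number 1.

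Galectin-1 and galectin-3 are known to increase in effector and memory T cells, and genes of those states were set beside them. Of 29 measured effector and memory genes, both arrays numbered 2 lay above both numbered 1 for 15 and below for 3, where 22.4% and 14.0% of all genes did so, and 11 overlapped, with a median difference between numbers of 0.175 beside 0.035 over all genes. Crip1, which encodes a LIM domain protein, read 9.27 and 10.53 on the TCDD arrays against 10.04 and 10.96 on the DMSO arrays. By treatment, both TCDD arrays lay below for 5 of the 29 and above for 0, where 12.0% and 12.9% of all genes did so, the median was -0.07, and Tbx21, the T-box factor of effector cells, differed by -0.74. Of 12 measured T cell activation genes, both arrays numbered 2 lay below both numbered 1 for 8 and above for 0, where 14.0% and 22.4% of all genes did so, with Egr1 at 11.03 and 9.82 on TCDD arrays against 12.21 and 10.56 on DMSO arrays. Nr4a1, an activation-induced nuclear receptor gene, read 9.47 and 8.75 on TCDD arrays against 10.88 and 8.83 on DMSO arrays, an overlap in which DMSO array 1 stands out. By treatment 1 of the 12 lay above and 1 below, where 12.9% and 12.0% of all genes did so, and 10 overlapped. Their median was 0.035. Limma called 0 genes of either list in either comparison.

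Lgals9 and Lgals3bp are interferon-induced, and 26 interferon response genes were measured. Both arrays numbered 2 lay above both numbered 1 for 14 and below for 2, where 22.4% and 14.0% of all genes did so, with a median of 0.21 between numbers. By treatment 2 lay above and 2 below, where 12.9% and 12.0% of all genes did so, and 22 overlapped, with a median of 0. Ifi47, which encodes an interferon-induced GTPase, read 9.33 and 10.28 on TCDD arrays against 10.13 and 10.98 on DMSO arrays. Ifit2, which encodes an RNA-binding antiviral protein, differed by -0.475, and by 0.05 within number 1. It read 6.42 and 6.18 on TCDD arrays against 6.37 and 7.18 on DMSO arrays, an overlap in which DMSO array 2 stands out. Damaged vesicles and autophagy, the process in which galectin-8 acts, were represented by 19 measured genes, with a median of 0.035. After TCDD 3 lay above and 2 below, where 12.9% and 12.0% of all genes did so. Becn1, a core autophagy gene, differed by -0.815 and Nbr1, an autophagy receptor gene, by -0.545, and both differences lay mostly within number 2. Of 10 measured AHR target genes, 0 lay above and 3 below, where 12.9% and 12.0% of all genes did so. Their median was -0.058. Tiparp, which encodes an ADP-ribosyltransferase, differed by 0.775 with overlapping groups, and by 1.15 and 0.40 within numbers 1 and 2. Lpxn differed by -0.215, also with overlapping groups, and went opposite ways within numbers 1 and 2, at 0.22 and -0.65. The 3 below, named after their values were seen, were Cyp1a2 (-0.11), Cyp1b1 (-0.155) and Nfe2l2 (-1.01), each with a mean over all arrays below the median level. Nfe2l2 read 5.54 and 5.38 on TCDD arrays against 6.14 and 6.80 on DMSO arrays, so its DMSO values lay above that level. Cyp1a1, also named after its values were seen, differed by -0.05 with overlapping groups. Limma called 0 genes of these 3 lists.

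Macrophages and dendritic cells express Lgals3 strongly, so markers of other cells were set beside it. Of 21 measured monocyte and macrophage markers, 5 lay above after TCDD, where 12.9% of all genes did so, and 1 below, the cathepsin gene Ctss at -0.555, where 12.0% did so, with overlap for 15 and a median difference of 0.03. Their mean level was 6.24 and 6.37 on TCDD arrays 1 and 2 against 6.18 and 6.36 on DMSO arrays 1 and 2, which overlap. The lysozyme gene Lyz2 read 7.11 and 6.85 on TCDD arrays against 6.07 and 6.78 on DMSO arrays, with differences of 1.04 within number 1 and 0.07 within number 2. The other 4 markers above after TCDD, named after their values were seen, differed within numbers 1 and 2 by 0.15 and 0.55 for Ly86, 0.15 and 0.29 for Ms4a7, 0.12 and 0.18 for Cd68, and 0.09 and 0.26 for Msr1. Lyz1, a lysozyme gene outside the list and also named after its values were seen, differed by 1.11. Another Lyz1 probe set differed by 0.88, both without overlap, and both probe set names mark possible cross hybridisation. The macrophage genes Cd68, Fcgr1, Itgam, Mrc1, C1qb and C1qc were among those below the median level on every array, and 12 of the 21 markers had a mean above it.

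Over all genes 12.9% lay above after TCDD and 12.0% below. Of 12 measured dendritic cell markers, 3 lay above and 2 below, with a median of 0.138. Their mean level was 6.65 and 6.36 on the TCDD arrays against 6.60 and 6.10 on the DMSO arrays, which overlap. Irf8, which encodes a factor of dendritic cells, read 8.31 and 7.02 on TCDD arrays against 8.02 and 5.76 on DMSO arrays, and Naaa differed by -0.425. B cell markers averaged 7.47 and 7.40 on TCDD arrays against 7.51 and 7.02 on DMSO arrays, with a median difference of -0.02. Of 13 measured, 0 lay above, 1 below and 12 overlapped, beside the same 12.9% and 12.0% of all genes. The MHC class II gene H2-Eb1 read 10.17 and 9.39 on TCDD arrays against 9.94 and 8.25 on DMSO arrays. H2-Aa read 11.30 and 10.42 on TCDD arrays against 10.94 and 9.51 on DMSO arrays. Both were lowest on DMSO array 2, as were Cd74 at 6.98 and H2-Ab1 at 7.66. None of the other measured B cell markers was lowest there, and Ighm read 10.73 and 11.03 on DMSO arrays 1 and 2.

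DMSO array 2 was highest in neutrophil markers, at a mean of 6.51 against 5.73 to 6.00 on the other arrays. It was also highest in NK cell markers, at 7.03 against 6.41 to 6.70. The same array was lowest in B cell markers, at 7.02 against 7.40 to 7.51, and in dendritic cell markers, at 6.10 against 6.36 to 6.65. A few genes had the largest gaps in the neutrophil and NK cell lists. The calprotectin genes S100a8 and S100a9 (S100a9 was chosen after its values were seen) read 8.67 and 7.80 on DMSO array 2, against at most 5.94 and 5.63 elsewhere. Camp, a neutrophil granule gene, differed by -0.25 between treatments and was also highest on DMSO array 2, at 6.52. By smaller margins than S100a8 and S100a9, so were Ltf, Ngp, Lcn2, Mmp9 and Mmp8, while Csf3r, Cxcr2, Elane and Mpo were not. These genes other than Camp were named after their values were seen. Gzma, a granzyme gene that is also on the effector list, read 10.07 on DMSO array 2 against at most 8.78 elsewhere, and Eomes, also on both lists, differed by -0.26. DMSO array 2 also held the highest Lgals9 value and the lowest Lgals3 value. Without it the Lgals3 difference was 0.855. The part of these markers in the Lgals3 and Lgals9 values was not tested.

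The other marker lists lay close together on the 4 arrays. CD4 T cell markers averaged between 6.34 and 6.52, with Cd40lg differing by 0.18 and Tnfsf8 by -0.18. Erythroid markers averaged between 6.16 and 6.25, with Klf1 at a difference of 0.145 and Epor at -0.11, and megakaryocyte and platelet markers between 5.96 and 6.14, with Itgb3 at -0.125 and Gp1bb at -0.07. Stromal and endothelial markers averaged between 5.78 and 5.98, with Acta2 at a difference of 0.26 and Tagln at -0.155. Limma called 0 genes of any marker list.

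**Figure D5:**
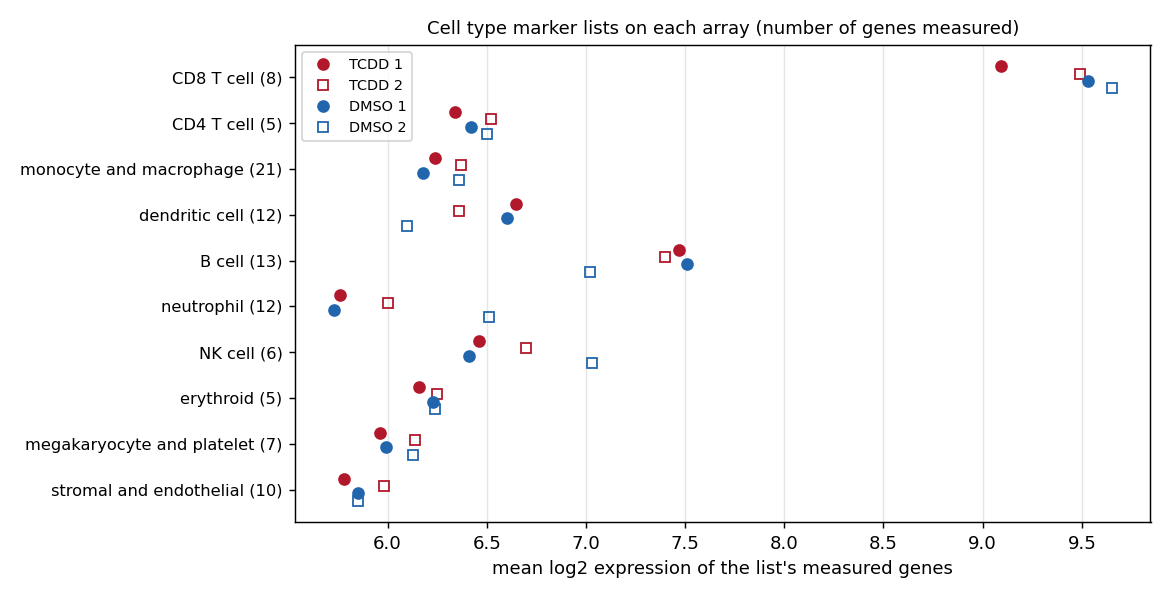
Mean log2 expression (horizontal axis) of the measured genes of each marker list on the 4 arrays, with TCDD in red above DMSO in blue in each row, filled circles for number 1 and open squares for number 2, and the number of genes in brackets. CD8 T cell markers lie between 9.09 and 9.65. DMSO array 2 is highest for neutrophil markers at 6.51 and NK cell markers at 7.03, and lowest for B cell markers at 7.02 and dendritic cell markers at 6.10.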

How the data were processed

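The deposited log2 values were made by the authors with RMA, per the submitters' processing notes, which name no version; that they are log2 follows from their range. Of 22690 probe sets, 64 Affymetrix controls were left out. The platform annotation, its symbols brought up to date by Entrez identifier, gave 20380 probe sets 1 gene, 691 several and 1555 none. Samples were grouped by their titles. Differences are TCDD minus DMSO, or number 2 minus number 1, on the log2 scale. The moderated test of limma 3.58.1 (lmFit, eBayes; R 4.3.3; Benjamini-Hochberg over 22626 probe sets, threshold 0.05) was fitted without a covariate for treatment and with treatment as a covariate for number, and was tested on simulated data. With 2 arrays against 2, the smallest two-sided permutation p is 0.3333, so none is given. The named genes are all probe sets of the 5 members, the 3 nearest profiles of each, and from each list the 2 largest differences above the median level; other names were chosen after their values were seen. The members, lists and motifs were chosen with earlier results of these data known. Alternatives were median centring, quantile normalisation, level filters, a variance trend with robust fitting, a replicate block, averaging all probe sets of a gene, removal of probe sets whose names end in _x_at, _s_at or _a_at (possible cross hybridisation, or several transcripts of a gene), no treatment term, and each array left out.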

Additional observations from a re-analysis of the deposited data

How the results depend on the processing

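The count of probe sets called for TCDD against DMSO was 0 in the 7 alternatives to the processing and in the 4 fits without 1 array, with 203 to 612 and 116 to 1079 probe sets at an unadjusted p under 0.05. With the replicate block it was also 0, with 612 at an unadjusted p under 0.05; deviations of same-numbered arrays had a correlation of 0.234 over probe sets, and with only 2 numbers they share a number rather than a shown pairing. For number 2 against number 1 the limma count was 30 with a variance trend and robust fitting and 1 with no treatment term, and 0 otherwise (847 to 1688 at an unadjusted p under 0.05); no galectin was called in either, and the cause was not tested. Without 1 array this fit has no residual degrees of freedom and was not run. Of 40 alternative values of the TCDD minus DMSO differences of the 5 genes, 4 had the opposite sign: Lgals1 without TCDD replicate 1 and without DMSO replicate 2, Lgals9 without DMSO replicate 2 (0.10), and Lgals8 as the mean of its probe sets (0.0425). The Lgals3 difference ranged from 0.815 to 1.305 as arrays were left out. Of 45 alternative values of the differences between numbers, 0 had the opposite sign and 2, both of Lgals3bp, were 0. The adjusted p ranged from 0.3189 to 0.5824 for Lgals1, 0.3725 to 0.744 for Lgals9, 0.5661 to 0.8763 for Lgals3, 0.9015 to 0.991 for Lgals3bp and 0.8745 to 0.9885 for Lgals8; every probe set of Lgals1 and Lgals9 has a name ending in _a_at, so the removal of such probe sets gave no value for them. The variance trend and the fit with no treatment term were added for single genes after seeing the data.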
